A study of Mus musculus with 2 samples.

Results

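Leukocyte surface receptors and adhesion molecules were compared between wild type (WT) and Tet2-deficient (Tet2-/-) mast cells. The genes were taken by symbol, with earlier results of these data known. The family names taken were Tnfrsf, Clec, Itga, Itgb, Siglec, Fcgr, Lilr, Klr, Ly6, Ifnar and Ifngr, the numbered Cd, Tlr, Ccr, Cxcr and Tspan genes, and the numbered interleukin receptors. Of the 54 listed symbols with such a name, Cd55, Tlr6, Il1r2, Il2ra, Il4ra, Ly6c2 and Ly6g were set aside but stay among all rows. This left 47 of the 8139 symbols in the table. All 47 matched 1 gene of the GENCODE mouse annotation, and 45 of them were protein-coding.

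The cells were mast cells grown from C57BL/6 bone marrow for 4 to 6 weeks in 10% serum with interleukin-3 (10 ng/ml) and stem cell factor (5 ng/ml), 1 library from WT mice and 1 library from Tet2-/- mice, whose cells lack the Tet2 enzyme that oxidises 5-methylcytosine in DNA. Purity by staining for the IgE receptor together with c-Kit was described as more than 97.5% in both groups. How many mice stood behind each culture, and how the Tet2 allele was made, is not given in the sources used here. Tet2 itself was not analysed here, so the expression values give no check of the genotype labels. Of 15 mast cell markers, Fcer1g, the signalling gamma chain of the IgE receptor, was listed, at 594 RPKM in WT cells and 438 RPKM in Tet2-/-, and the other 14 were not analysed here.

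Leukocyte surface proteins fall into a few working classes. Integrins anchor cells to matrix and to other cells, and tetraspanins cluster integrins and other receptors in the membrane. Lectins and paired immunoglobulin-like receptors read sugars or self proteins and signal through tyrosine motifs of their own or of adaptors. Cytokine and TNF receptors pass on signals from soluble or membrane-bound ligands. Mast cells use these classes to home to tissue, to be restrained or primed by neighbouring cells, and to respond to microbes. DNA methylation, the substrate of Tet2, is placed on cytosines in CpG dinucleotides.

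A mean of 1 RPKM was reached by 21 of the 47 genes (44.7%, beside 25.9% of all rows). Of these 21, 15 differed by less than 1.5-fold between the libraries (71.4%). Among all rows at that mean with a value in both libraries, 88.3% did so. Cd48, a SLAM family surface protein, was at 39.6 RPKM in WT cells and 98.3 RPKM in Tet2-/-. The C-type lectin genes Clec10a, Clec4d and Clec4n and the decoy receptor gene Tnfrsf11b had ratios of 2.02 to 3.69 in the same direction. The tetraspanin gene Tspan8 went the other way, at 2.96 RPKM in WT cells and 0.312 RPKM in Tet2-/-. The 3 integrin chains above 1 RPKM, the other 3 tetraspanins and the interferon gamma receptor gene Ifngr1 differed by less than 1.2-fold.

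RPKM divides reads by gene model length and library size, so levels can be set side by side between genes. A difference is given as log2(RPKM + 1) in Tet2-/- minus WT, which understates the change of low genes, and a ratio is of the RPKM values. Of the 47 genes, 21 (44.7%) reached a mean of 1 RPKM, against 25.9% of all rows. A gene counted as higher or lower where its log2 difference was at least 1 in size, a fixed size that stands where a test would need replicates. Each genotype has 1 library, so the differences lack any replicate check and no p-values were computed. Bracketed ranges are 95% exact Clopper-Pearson counting intervals from inferred fragment numbers. They cover counting error only, not the spread between cultures or mice.

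By that rule 2 of the 21 genes, Cd48 and Tnfrsf11b, were higher in Tet2-/- (9.52%), where 2.9% of the 2107 rows at or above a mean of 1 RPKM were. Tspan8 was the 1 gene that was lower (4.76%), against 1.61% of all rows. Tnfrsf11b and Tspan8 each had 1 library under 1 RPKM and reached the mean through the other, so they had to differ, and these counts describe the genes without supporting more. The median log2 difference of the 21 genes was 0.09, beside 0.01 over all rows. A positive difference was seen in 15 of the 21 (71.4%), beside 52.0% of all rows. The counting interval lay above 1 for 9 of the 21 (42.9%) and below 1 for 3 (14.3%), where the shares over the 1954 rows with an interval were 27.2% above and 23.2% below. Ratios were within 1.2-fold for 42.9% of the receptor genes, beside 69.6% of the 2084 rows with a value in both libraries, and within 1.5-fold for 71.4%, beside 88.3%. Each gene moves such a share by 4.76 points.

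**Figure D1:**
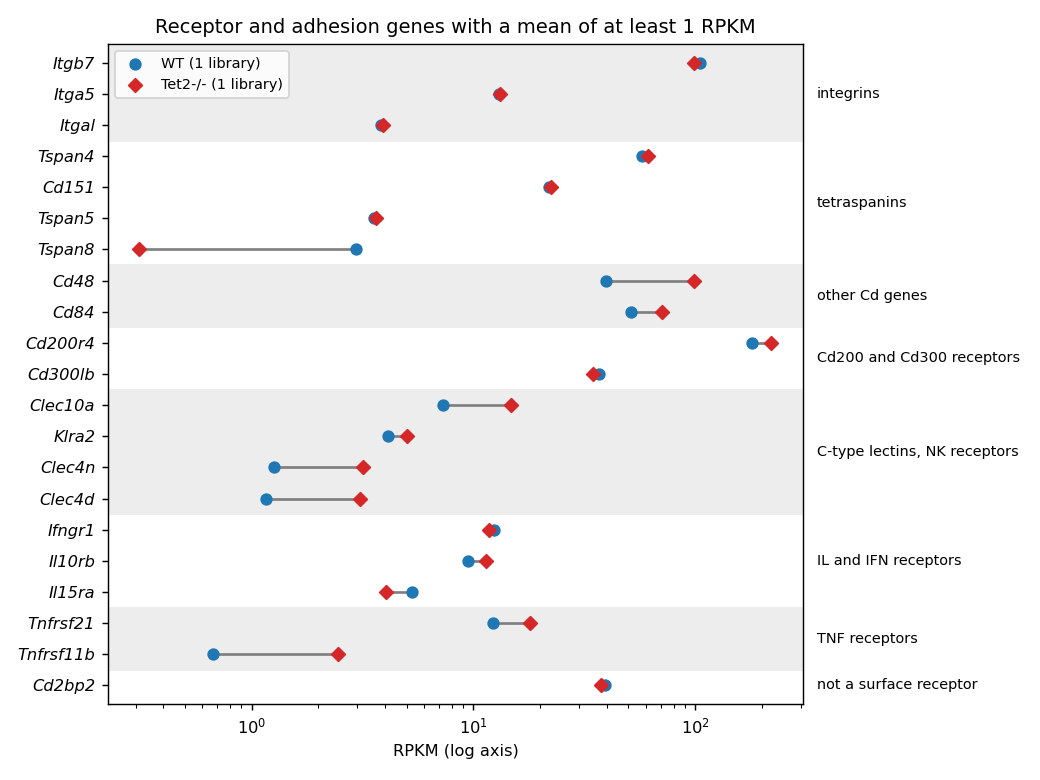
RPKM in the WT library (circles) and the Tet2-/- library (diamonds) for the 21 receptor and adhesion genes that reached a mean of 1 RPKM, on a log axis and grouped by role. The symbols overlap for most integrins and tetraspanins and lie farthest apart for Tspan8, Tnfrsf11b, Cd48 and the lectins Clec4d and Clec4n.

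Integrins are pairs of an alpha and a beta chain, and 4 chains were listed. Itgb7, the beta chain of the gut-homing integrins that guide mast cell progenitors to the intestine, was the second most abundant of the 47 genes in both libraries, at 105.6 RPKM in WT cells and 98.9 RPKM in Tet2-/-. Its ratio of WT to Tet2-/- was 1.07 (1.04 to 1.10), a small difference beyond counting error. Itga5, the alpha chain of the fibronectin receptor, was at 13.1 RPKM in both, with a ratio of 1.01 (0.941 to 1.08). Itgal, the alpha chain of LFA-1 that binds ICAM proteins on other cells, was at 3.83 and 3.91 RPKM, for a ratio of 1.02 (0.891 to 1.17). Itga11, a collagen receptor chain, rested on 1 and 2 inferred fragments. None of the 3 chains above 1 RPKM reached 2-fold, and their median log2 difference was 0.01. The partner chains Itga4, Itgae, Itgb1 and Itgb2 were not analysed here, so no complete heterodimer can be described.

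Tetraspanins are membrane proteins that cluster integrins and other receptors into patches, and 3 of the 4 listed stood level. Tspan4, known from the migration tracks that moving cells leave behind, was at 57.6 RPKM in WT cells and 61.2 RPKM in Tet2-/-, for a ratio of 1.06 (1.00 to 1.13). Cd151, which binds laminin-binding integrins, was at 22.0 and 22.4 RPKM, for a ratio of 1.02 (0.932 to 1.11). Tspan5, which steers the protease ADAM10, was at 3.57 and 3.66 RPKM, for a ratio of 1.02 (0.773 to 1.35). Cd151 and Tspan4 lie 3.77 kb apart on chromosome 7 with the RNA polymerase gene Polr2l between them. Tspan4 shares exon sequence with the opposite-strand gene Chid1 at 24.9 and 24.3 RPKM, so part of its value may be reads of Chid1. Cd151 likewise overlaps exons of the opposite-strand gene Gm10575, which was not analysed here.

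Tspan8 stood apart from the other tetraspanins. It is a tetraspanin best known from epithelial cells and tumours (chromosome 10, 115816832 to 115849893, mm10). Its WT value corresponded to 91 inferred fragments and its Tet2-/- value to 10. The ratio of WT to Tet2-/- was 9.49 (4.82 to 20.0), and the log2 difference was -1.59. It moved from position 1800 among all rows in WT to position 2453 in Tet2-/-. Tspan8 overlaps exons of 4930422I22Rik on the opposite strand, which was not analysed here, and their reads cannot be told apart.

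**Figure D2:**
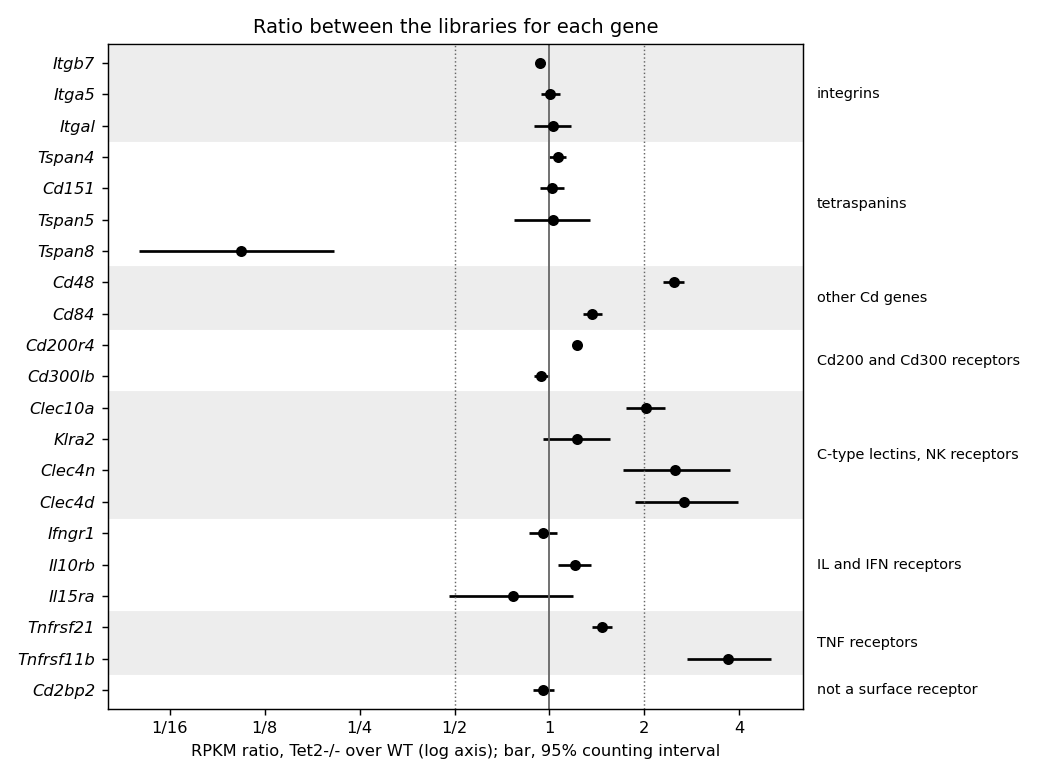
RPKM ratio of Tet2-/- to WT for the same 21 genes on a log axis, with a solid line at 1 and dotted lines at 2-fold; bars are 95% counting intervals and hold no spread between cultures. The bar of Tspan8 lies below the lower dotted line, those of Cd48 and Tnfrsf11b lie above the upper one, and 9 of the 21 bars hold 1.

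Cd48 and Cd84 belong to the SLAM family, immunoglobulin-like proteins through which leukocytes recognise each other. CD48 is anchored by a lipid, binds CD244 and CD2, and on mast cells also binds the bacterial adhesin FimH, while CD84 binds itself and signals through tyrosine motifs. Cd48 (chromosome 1, 171682009 to 171705258) and Cd84 (chromosome 1, 171839697 to 171890718) lie 134 kb apart on the same strand with Slamf1 as the only protein-coding gene between them. The 250 bases before the RefSeq start of each gene (build GRCm38.p6, plus strand) are shown because these neighbours had different ratios. Capitals mark the CpG dinucleotides, 4 at Cd48 (chr1:171681742-171681991) and 3 at Cd84 (chr1:171839447-171839696).
Cd48: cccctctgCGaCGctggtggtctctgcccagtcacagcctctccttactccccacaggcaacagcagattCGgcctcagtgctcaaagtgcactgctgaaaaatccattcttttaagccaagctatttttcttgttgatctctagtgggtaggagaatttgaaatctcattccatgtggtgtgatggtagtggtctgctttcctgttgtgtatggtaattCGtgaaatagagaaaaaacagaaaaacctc
Cd84: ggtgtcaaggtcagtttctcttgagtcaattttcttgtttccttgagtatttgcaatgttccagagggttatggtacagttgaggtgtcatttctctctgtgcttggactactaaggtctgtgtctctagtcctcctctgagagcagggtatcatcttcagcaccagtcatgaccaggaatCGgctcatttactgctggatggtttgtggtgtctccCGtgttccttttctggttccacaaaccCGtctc

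Cd48 was below Cd84 in WT and above it in Tet2-/-. Its values of 39.6 RPKM in WT cells and 98.3 RPKM in Tet2-/- corresponded to 926 and 2334 inferred fragments, for a ratio of 2.48 (2.30 to 2.68) and a log2 difference of 1.29. Among the 47 genes it was the fifth most abundant in WT and the third in Tet2-/-. Cd84 was at 51.6 RPKM in WT cells and 70.6 RPKM in Tet2-/-, for a ratio of 1.37 (1.28 to 1.47), which did not reach 2-fold. The counting intervals of the ratios did not overlap. Without Cd48 the summed level of the receptor genes was 573 RPKM in WT cells and 643 RPKM in Tet2-/-, and with it 612 and 742 RPKM. The other SLAM family genes of this locus, and the CD48 ligands CD244 and CD2, were not analysed here.

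Activating receptors of the paired Cd200r and Cd300 families signal through adaptors in the membrane. Both families set how readily mast cells and other myeloid cells respond. Cd200r4, an activating relative of the CD200 receptor (chromosome 16, 44811733 to 44839150), was the most abundant of the 47 genes and held position 74 among all rows in both libraries. It was at 180 RPKM in WT cells and 221 RPKM in Tet2-/-, for a ratio of 1.22 (1.19 to 1.26). Cd200r2, 27.9 kb away, was at 0.305 and 0.478 RPKM on 15 and 24 inferred fragments, for a ratio of 1.57 (0.788 to 3.21). These are close paralogs, and reads shared between them would make both values uncertain. Cd300lb, an activating receptor of the Cd300 cluster, was at 36.7 and 34.7 RPKM, a WT over Tet2-/- ratio of 1.06 (1.01 to 1.12). Siglecg, an inhibitory receptor for sialic acids best known from B cells, was listed at 0.01 in WT, the value that stands for most models without reads, and at 0.150 RPKM in Tet2-/- on 11 inferred fragments. Lilra5 was at 0.01 in both.

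The 3 Clec genes above a mean of 1 RPKM stood higher in Tet2-/-. Clec10a, a receptor for galactose and N-acetylgalactosamine known from macrophages and dendritic cells (chromosome 11, 70156197 to 70170834), was at 7.28 RPKM in WT cells and 14.7 RPKM in Tet2-/-, for a ratio of 2.02 (1.75 to 2.33). Clec4n encodes Dectin-2, a receptor for fungal mannans that signals through the Fc receptor gamma chain, and was at 1.27 and 3.17 RPKM, for a ratio of 2.50 (1.71 to 3.75). Clec4d encodes a relative that pairs with Dectin-2, and was at 1.16 and 3.08 RPKM on 41 and 113 inferred fragments, for a ratio of 2.66 (1.87 to 3.96). All 3 ratios passed 2, but the log2(RPKM + 1) differences of 0.92, 0.88 and 0.92 fell just short of the rule, and Tnfrsf11b was just inside it at 1.05. With a pseudocount of 0.1 RPKM in place of 1, Clec10a, Clec4n and Clec4d all counted as higher. Clec4d is outside the rule for named genes, as are several genes named below a mean of 1 RPKM, and Clec4d was taken up after its values were seen. Klra2, an inhibitory Ly49 receptor found on myeloid cells, was at 4.11 and 5.04 RPKM, for a ratio of 1.22 (0.957 to 1.56). It belongs to a family of related genes. The 4 genes had a median log2 difference of 0.90, and 0 of them counted as higher or lower.

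Clec4n (chromosome 6, 123229843 to 123247021) and Clec4d (chromosome 6, 123262111 to 123275265) are direct neighbours 15.1 kb apart, with no protein-coding gene between them. Clec4a4 and Clec4a1, relatives in the same cluster, were barely detected. Clec4a4 was at 0.01 in both libraries, and Clec4a1 was listed at 0.01 in WT, with 0.0680 RPKM in Tet2-/- on 3 inferred fragments. The 250 bases before the start of Clec4d (chr6:123261857-123262106, plus strand, RefSeq, build GRCm38.p6) are shown as the contrast to the SLAM pair, since they hold 0 CpG dinucleotides. The 6 capitals mark GAGGAA read on the opposite strand, the core bound by ETS factors such as PU.1 in myeloid cells.
Clec4d: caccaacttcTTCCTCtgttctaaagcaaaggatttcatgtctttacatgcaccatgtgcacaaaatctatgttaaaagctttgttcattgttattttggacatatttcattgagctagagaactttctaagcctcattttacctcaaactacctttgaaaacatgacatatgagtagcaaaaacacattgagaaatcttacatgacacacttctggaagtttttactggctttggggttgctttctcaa
This hexamer, searched on both strands, occurs in 23.3% of all 32851 windows of that length, so its presence is a description and not a binding site. Clec4n and Clec10a had no window in the table.

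Several known markers of other myeloid cells stood higher in the Tet2-/- library as well. Of 19 macrophage and monocyte markers 6 were listed. Without Clec4a1, which is among the 47 genes, and Ly6c2, which was set aside and stood at 0.479 and 18.8 RPKM, the remaining Csf1r, Mrc1, Msr1 and C1qb summed to 0.507 RPKM in WT cells and 4.55 RPKM in Tet2-/-, with single values of 0.0802 to 0.200 and of 0.775 to 1.51 RPKM. Of 11 neutrophil markers 4 were listed. They were Clec4d, which is among the 47 genes, Ly6g, which was set aside and stood at 1.10 and 9.61 RPKM, Mpo, listed at 0.01 in WT with 0.458 RPKM in Tet2-/-, and Csf3r at 0.01 in both. Of 6 eosinophil markers 2 were listed, Ear2 at 0.117 and 1.45 RPKM and Il5ra, which is among the 47 genes, at 0.712 and 0.820 RPKM with an interval of the ratio that held 1. The basophil marker Mcpt8, 1 of 5 on its list, was at 56.1 and 163 RPKM. The part of such cells in the values of Cd48 and the lectins was not tested, and in a bulk library more cells of a type and more RNA per cell cannot be told apart. Of 8 dendritic cell markers 0 were listed, and of 7 B cell and 11 T and NK cell markers 1 each, Cd79a at 0.0250 and 0.147 RPKM and Ncr1 at 0.811 and 1.23 RPKM. The platelet marker Ppbp and the stromal marker Col1a2 were at 0.01 in both. On the progenitor list of 6 the listed gene was Cd48 itself.

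**Figure D3:**
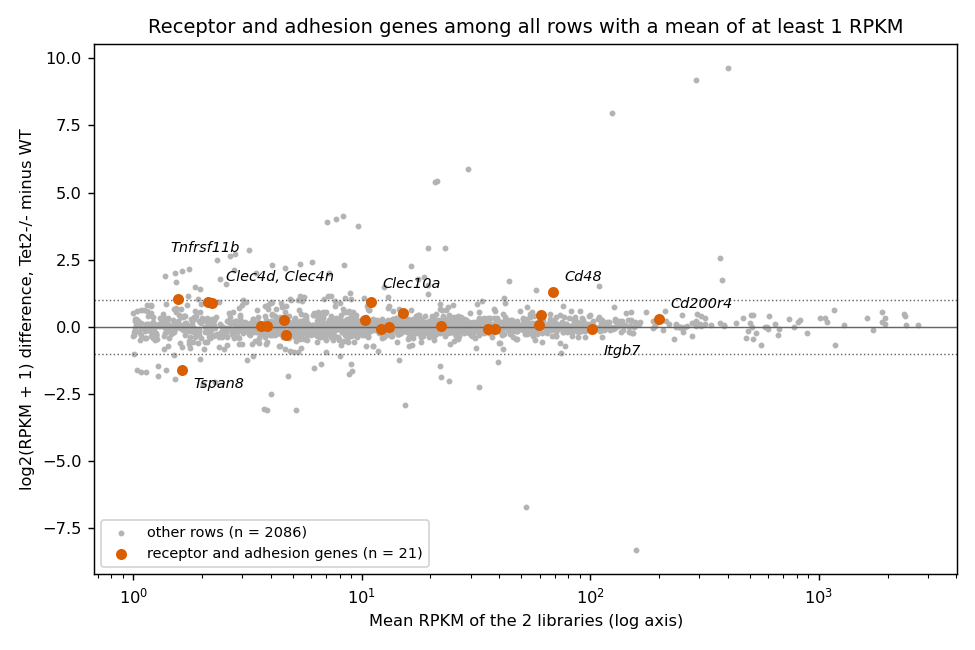
Difference in log2(RPKM + 1) between Tet2-/- and WT against mean RPKM on a log axis for the 2107 rows with a mean of at least 1 RPKM, with the 21 receptor and adhesion genes in orange and dotted lines at 2-fold. Cd48 lies above the upper line at a mean where most rows lie near 0, Tspan8 lies below the lower one, and Clec10a, Clec4d and Clec4n lie just under the upper one.

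Cytokine receptor chains differed little. Ifngr1, the ligand-binding chain of the interferon gamma receptor, was at 12.4 RPKM in WT cells and 11.8 RPKM in Tet2-/-, for a ratio of 0.954 (0.861 to 1.06). Il10rb, the shared chain of the interleukin-10 family receptors, was at 9.43 and 11.3 RPKM, for a ratio of 1.20 (1.07 to 1.36). Il15ra, which presents interleukin-15 to other cells, was at 5.30 and 4.05 RPKM, for a ratio of 0.764 (0.482 to 1.19). Its interval is wide because the shortest of its 9 annotated transcripts was used for the fragment numbers. With the longest, the lower bound was 0.638 and the whole interval lay below 1. The median log2 difference of the 3 chains was -0.06, and 0 of them reached 2-fold. Il5ra, the interleukin-5 receptor chain of eosinophils, was at 0.712 and 0.820 RPKM, for a ratio of 1.15 (0.710 to 1.87). Of the ligands of these receptors, Il5 and Il10 were listed, both at 0.01 in both libraries. Csf2rb2, the second interleukin-3 receptor beta chain of the mouse, was at 1787 and 1670 RPKM.

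Both TNF receptor genes stood higher in Tet2-/-. Tnfrsf11b encodes osteoprotegerin, a secreted decoy for RANKL and not a surface protein (chromosome 15, 54250619 to 54278484). It was at 0.667 RPKM in WT cells and 2.46 RPKM in Tet2-/- on 55 and 208 inferred fragments, for a ratio of 3.69 (2.73 to 5.06). Tnfrsf21 encodes death receptor 6 (chromosome 17, 43016555 to 43089189) and was at 12.3 and 18.1 RPKM, for a ratio of 1.47 (1.37 to 1.57), which did not reach 2-fold. Their ligands were not analysed here. Of the symbols taken by name, Cd2bp2, whose product is a splicing-associated protein inside the cell, was at 39.3 and 37.6 RPKM, for a ratio of 0.957 (0.888 to 1.03).

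Signalling partners of these receptors were taken from 6 lists of 126 genes. Of the 22 partner genes in the table, 1 was higher by 2-fold and 0 were lower, 21 were within 1.5-fold, and the median log2 difference was -0.003. Over all rows at or above a mean of 1 RPKM, 2.9% were higher and 1.61% lower. Of those with a value in both libraries, 88.3% were within 1.5-fold. The gene that was higher was Spp1, which encodes the integrin ligand osteopontin, at 7.35 RPKM in WT cells and 27.8 RPKM in Tet2-/-. Ilk, the kinase-like anchor of integrin tails, was at 83.9 and 82.1 RPKM, and its partner Lims1 at 35.7 and 34.8 RPKM. Among genes downstream of lectins and paired receptors, the kinase gene Lyn was at 49.6 and 48.5 RPKM and the adaptor gene Dok1 at 16.3 and 17.2 RPKM, while Fcer1g, through which Dectin-2 signals, had a ratio of 0.736, opposite in direction to Clec4n and Clec4d.

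The remaining partner lists held 0 genes beyond 2-fold. Downstream of Toll-like and interleukin-1 receptors, the adaptor gene Myd88 was at 47.7 and 54.6 RPKM and the kinase complex genes Ikbkb and Ikbkg at 35.4 and 31.0 RPKM and at 29.8 and 26.7 RPKM. Downstream of TNF receptors, Casp8, an initiator caspase gene, was at 50.7 and 45.1 RPKM, the kinase gene Ripk1 at 27.0 and 30.0 RPKM, and the transcription factor gene Rela at 21.2 and 21.6 RPKM. The interferon signal transducer gene Stat2 was at 11.2 and 9.88 RPKM. The G protein genes Gnai2 and Gnb1, used by chemokine receptors, were at 288 and 292 RPKM and at 267 and 292 RPKM.

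Below a mean of 1 RPKM lay 26 of the 47 genes. Of these, 10 were at 0.01 in both libraries (21.3% of the 47, beside 54.1% of all rows): the lectin genes Clec4f, Clec2h, Clec4a4, Cd207, Cd209b and Cd209e, and Lilra5, Cd101, Ly6h and Il11ra2. Values above 0.01 in WT alone were seen for 5 genes, and in Tet2-/- alone for 3, where over all rows below that mean the numbers were 263 and 313. Clec2f, a ligand-type lectin that the annotation lists as a pseudogene, was at 0.627 RPKM in WT on 9 inferred fragments and at 0.01 in Tet2-/-. The other 4 of the first kind, Ccr10, Klra17, Il23r and the pseudogene Klrb1-ps1, were at most at 0.0605 RPKM. Cd38, an ectoenzyme that consumes NAD, was listed at 0.01 in WT, with 0.0505 RPKM in Tet2-/- on 5 inferred fragments.

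The 8 genes below that mean with a value in both libraries were all higher in Tet2-/-, but all 8 counting intervals held 1. Over all rows below that mean with a value in both, 49.7% were higher. Fcgr4, an activating receptor for IgG, was at 0.0296 and 0.174 RPKM and the B cell receptor chain gene Cd79a at 0.0250 and 0.147 RPKM, each on 1 and 6 inferred fragments. The chemokine receptor gene Cxcr6 was at 0.149 and 0.164 RPKM. At this depth no difference beyond counting error was found for these 8 genes. Intervals were not computed for the 8 genes with a value in 1 library. Those include Siglecg, with 0 inferred fragments in WT and 11 in Tet2-/-, and Clec2f, with 9 and 0.

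**Figure D4:**
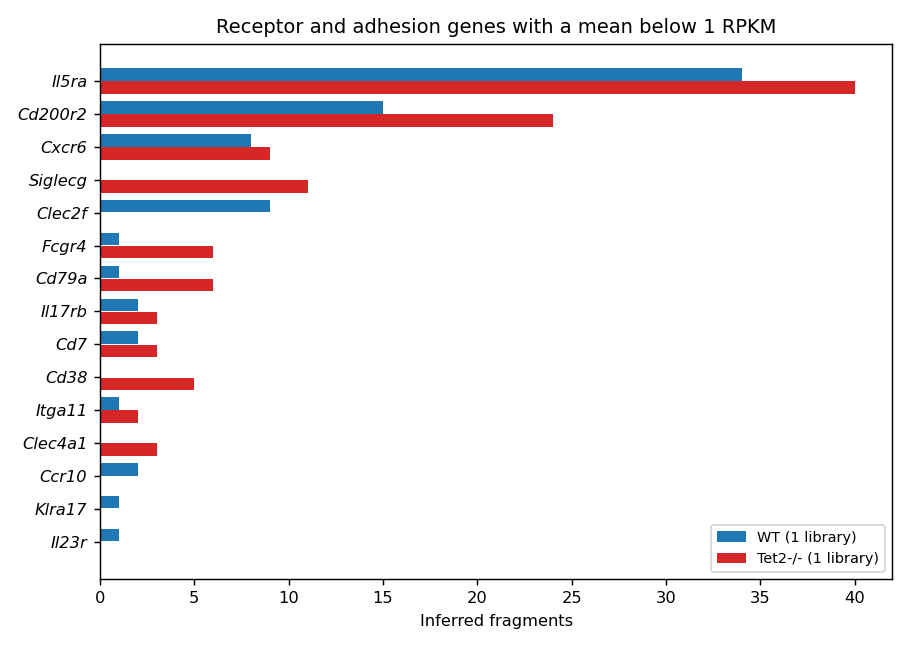
Inferred fragments in the WT library (upper bars) and the Tet2-/- library (lower bars) for the 15 receptor and adhesion genes with a mean below 1 RPKM and at least 1 inferred fragment. Il5ra has 34 and 40 fragments, Siglecg 0 and 11, Clec2f 9 and 0, and most others fewer than 10 in each library.

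Promoter sequence was available for 36 of the 47 genes, as 40 windows of 250 bases before the RefSeq start. The windows held 0 to 33 CpG dinucleotides. Their median was 3, beside 6 over all 32851 windows, and 70.0% of them held 5 or fewer, beside 49.6% of all windows. The 19 windows of genes at or above a mean of 1 RPKM had a median of 5 and the 21 windows of the others a median of 2. Tspan5 had the most, 33. Cd48 and Tspan8 had 4 each, Cd200r4 had 1 and Clec4d had 0. The windows of Cd200r4 and Tspan8 lie inside the GENCODE genes, past their first annotated starts. That of Tspan8 overlaps 2 annotated exons, so not every window is sequence upstream of a gene. Whether the number of CpG dinucleotides goes with the ratio was not tested. The core of sites for erythroid and mast cell GATA proteins was searched as AGATAA on both strands. It occurred in 5 of the 40 windows and in 9.99% of all windows. GAGGAA occurred in 18 of the 40 and in 23.3% of all windows, a difference that was not tested. No methylation was measured in these samples, so the CpG counts say nothing about methylation at these genes.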

How the data were processed

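The authors deposited RPKM values, 1 column per library, per the file headers. Per the submitters' processing notes the genome build was mm10. Aligner, counter and gene models: not given in the sources used here. The kit was an Illumina TruSeq RNA kit, per the labels' protocols, whose strand setting is not stated, so opposite-strand genes cannot be separated. Rows at exactly 0.01 made up 58.1% of the WT and 57.4% of the Tet2-/- column, and were taken as models without reads, although a few values lie below it.

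Depth was inferred from low values of genes with a single GENCODE release 21 transcript. Effective length was length less 170 bases in WT and 180 in Tet2-/-. RPKM times effective length times depth came out whole, to within 0.1 fragments, in 85.6% of 543 WT genes at 31100000 fragments. In Tet2-/- it did so for 88.7% of 551 genes at 32000000 fragments. Chance gives 20% at a fixed setting, but depth and length offset were chosen as the best fit to these same genes. Fragment numbers used the shortest basic transcript of at least 400 bases. Intervals are 95% Clopper-Pearson. Fold differences used a pseudocount of 1 RPKM, a mean of at least 1 RPKM and a 2-fold threshold. The calculation was tested on simulated data.

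The named genes were those past 2-fold, the 3 most abundant of each role group and partner list, and those reaching 5 RPKM with a ratio of at least 1.5. Clec4d and several genes below a mean of 1 RPKM, such as Siglecg and Clec2f, are named outside this rule. The genes and lists were chosen with earlier results of these data known. The ligand, subunit and SLAM lists were added after the values were seen. Computations ran in Python 3.11.15 (scipy 1.17.1, numpy 2.4.6, pandas 2.3.3) and figures in matplotlib 3.10.9.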

Additional observations from a re-analysis of the deposited data

How the results depend on the processing

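The counts of receptor genes beyond 2-fold rest on few genes near the threshold. Against 2 higher and 1 lower, 5 were higher with a pseudocount of 0.1 and 5 with a 1.5-fold threshold. With a pseudocount of 5, or a mean of at least 5 RPKM, 1 was higher and 0 were lower, and at 4-fold 0 were higher and 0 lower. Over all rows, where 61 were higher and 34 lower, the counts were 90 and 46 with a pseudocount of 0.1, 123 and 76 at 1.5-fold, 33 and 14 with a pseudocount of 5, 27 and 10 at 4-fold, and 40 and 16 among the fewer rows whose mean reached 5 RPKM. Median-ratio scaling shifted each log2 difference by 0.01 and changed neither count of receptor genes. Over all rows it gave 61 higher and 35 lower. With no filter, the median log2 difference was 0.040 for C-type lectins and NK receptors and 0.054 for the other Cd genes, because genes near 0.01 joined. The other 46 of 48 medians of role groups stayed within 1.5-fold. For lists of partners and markers, 65 of 71 alternative medians did so, the 6 others being those of the macrophage and neutrophil markers. Of 108 alternative log2 differences of named genes, 101 moved by less than the counting error, and neither a pseudocount nor this scaling can turn a large difference. That margin is wide for low genes. With a pseudocount of 5, Tspan8 went from -1.59 to -0.584, short of 2-fold, and still is among the 101. Of 20 intervals recomputed with the longest transcript, 17 kept their side of 1, and those of Il15ra, Klra2 and Tspan4 did not. No paired analysis was possible because there is 1 library of each genotype. Leaving out a library was impossible as well.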
